A study of Bos taurus with 6 samples.

Results

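The genes described here are 10 members of the insulin-like growth factor (IGF) system, chosen by symbol out of 28200 rows of the count table. They are the ligand gene IGF2, the binding protein genes IGFBP2, IGFBP3, IGFBP4, IGFBP5, IGFBP6 and IGFBP7, the receptor gene IGF1R, and the docking protein genes IRS1 and IRS2. Each symbol stood on 1 row, so all 10 members were found, and 9 of them had enough counts to be tested. They were read by RNA sequencing in primary mammary epithelial cells of Holstein cattle (BMECs), obtained by enzyme digestion of breast tissue. The 3 KLF6 knockout libraries came from cells in which KLF6, which encodes a DNA-binding regulator of transcription, was knocked out with CRISPR/Cas9. The 3 wild-type libraries came from cells with no such edit. The labels give no further treatment for either genotype. Whether replicate libraries came from separate cultures, and whether the knockout cells were 1 clone or a pool, is not stated. The p-values below thus rest on the spread among replicate libraries alone, and that spread may be technical.

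IGF1 and IGF2 are secreted hormones that signal through IGF1R, a receptor tyrosine kinase of the cell surface. The active receptor phosphorylates IRS1 and IRS2, docking proteins that recruit PI3-kinase and adaptors to it. The high-affinity IGF-binding proteins hold the ligands outside the cell, where they prolong the life of IGFs and keep them from the receptor or release them near it. In the mammary gland the IGF system is known as a survival and growth signal of epithelial cells, and IGFBP5 is known from rodents as a binding protein whose amount goes up when the gland involutes.

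Total counts were between 17512892 and 18724879 per library. KLF6 itself stood at 224, 230 and 217 CPM in knockout libraries, against 503, 496 and 558 CPM in wild-type libraries, where CPM is counts per 1000000 counts of the scaled library. Between 3897 and 4233 reads of the gene remained in a knockout library, and counts per gene do not show the edit itself. Wild-type replicate 3 stood apart from its group, at up to 9.14 times the variance of pure counting against another wild-type library, so results that turn on it are named. The epithelial markers KRT8, KRT5 and EPCAM were read in every library, the first at 2398 to 2519 CPM in knockout, against 6961 to 7938 CPM in wild type. Of the 7 luminal markers 5 fell, and neither EPCAM nor CDH1 was called. Of the 7 basal ones 4 fell, KRT14 rose, and MYLK and OXTR were nearly unread and not tested. Of all tested genes, 37.6% were called lower and 37.1% higher. Among the basal markers that fell, KRT15 stood at 1.43, 1.69 and 2.84 CPM in knockout, against 952, 953 and 954 CPM in wild type. The 7 luminal marker genes summed to 3930 to 4089 CPM in knockout, against 10885 to 12213 CPM in wild type, and the 7 basal ones to 2567 to 2638 CPM in knockout, against 6038 to 6120 CPM in wild type.

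The members did not move as a block. IGFBP2, IGFBP7 and IGFBP4 rose in knockout libraries, IGFBP5, IGFBP3, IGFBP6, IRS2 and IRS1 fell, IGF1R did not pass the test, and IGF2 was hardly read in either genotype. Of the 9 members that passed the filter on low counts, 8 were called by the edgeR quasi-likelihood test at an adjusted p up to 0.05. IGFBP5 is among them and passed that filter through its wild-type reads alone. Calls made up 74.6% of all 13390 tested genes (37.1% higher and 37.6% lower), so the members' share is read against a high background. The CPM ranges of the genotypes did not overlap for 8 of the 9, against 76.2% of all tested genes. By the same test 5 of the 9 also changed at least 2-fold, against 22.3% of all tested genes. The median log2 fold change of the 9 members was -0.45, beside -0.01 over all tested genes. In such bulk libraries, fewer cells of a type and less RNA per cell cannot be told apart.

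**Figure D1:**
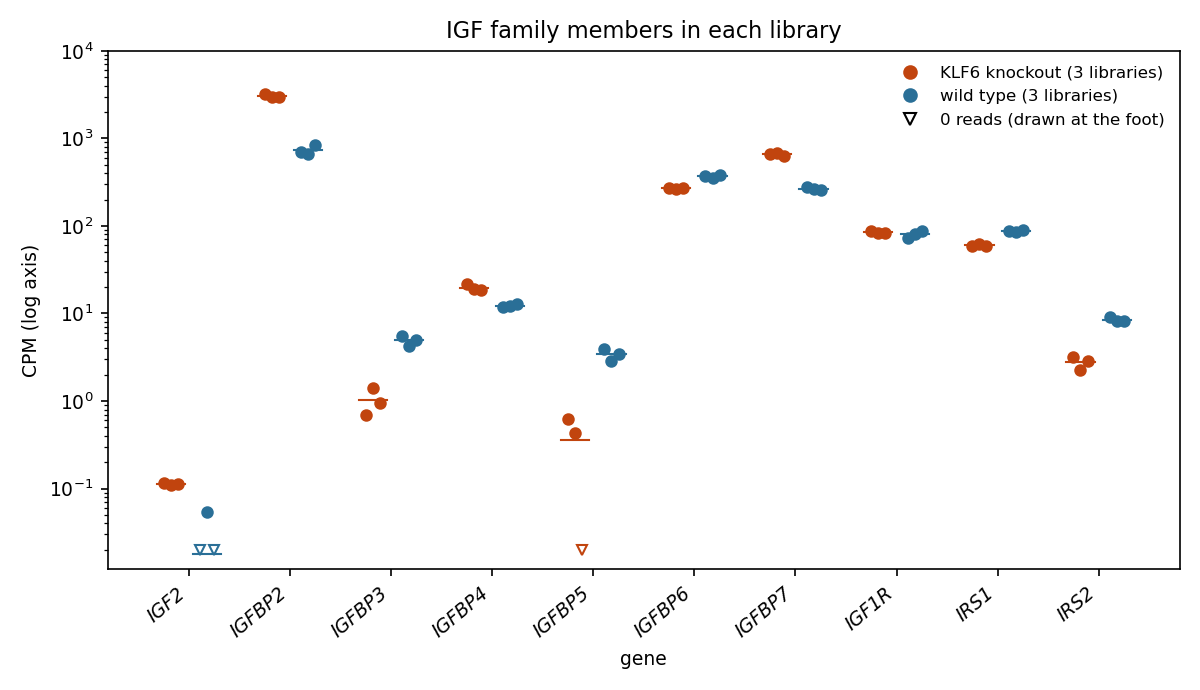
CPM on a log axis for each of the 10 members, with 1 point per library, knockout left of wild type, and a bar at the mean of the 3 libraries. IGFBP2 lies highest in both genotypes, and open triangles mark libraries with 0 reads, which occur for IGF2 and IGFBP5.

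The ligand gene IGF2 (ENSBTAG00000013066, chromosome 29, 49394907 to 49422468, with no genome build stated for this and all later positions) encodes the fetal and local growth factor of the pair. It had 2, 2 and 2 reads in the knockout libraries, against 0, 1 and 0 reads in the wild-type libraries. The ratio of the summed counts was 6.10, with a 95% counting interval of 0.740 to 281 that spans no difference. The filter on low counts kept IGF2 out of the main test, and neither edgeR without the filter (adjusted p = 0.202) nor DESeq2 (adjusted p = 0.282) called it, so a difference was not detectable at this depth. Its neighbour INS, the insulin gene, ends 370 bases before IGF2 and had no read in any library. IGF1, the other ligand, also had no read, which allows a level of up to 0.0277 CPM over the 6 libraries.

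IGFBP2 (ENSBTAG00000005596, chromosome 2, 104619851 to 104649017, plus strand) was the most abundant member. The binding protein it encodes prefers IGF2 and also carries an integrin-binding motif. IGFBP2 stood at 3170.4, 2981 and 2976 CPM in the knockout libraries, against 704, 667 and 835 CPM in the wild-type libraries. The lowest knockout library was far above the highest wild-type library, which was replicate 3. The fitted change was 4.14-fold, a log2 fold change of 2.05 ± 0.07 (SE) with an edgeR adjusted p of 2.33e-10. Leaving out a library gave log2 fold changes of 1.98 to 2.15. By level per length (TPM, transcripts per 1000000), IGFBP2 ranked 18 to 19 among all genes in knockout libraries and 132 to 173 in wild type.

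IGFBP7 (ENSBTAG00000019368, chromosome 6, 72405716 to 72486115, minus strand) encodes a matrix-associated relative of the family that binds IGFs only weakly and is known as a product of endothelial and stromal cells. It stood at 664, 675 and 633 CPM in the knockout libraries, against 277, 263 and 256 CPM in the wild-type libraries. The groups were well apart, and the log2 fold change was 1.31 ± 0.05 (edgeR adjusted p = 2.04e-14), or 2.48-fold. The endothelial markers did not move one way, though their summed level was 32.3 to 33.8 CPM in knockout, against 4.55 to 5.85 CPM in wild type. In knockout that sum was nearly all PECAM1, at 30.4 to 32.2 CPM. Of the 7 markers, PECAM1 and EMCN rose, VWF and TEK fell, and CDH5, KDR and CLDN5 were not tested, with no read of KDR or CLDN5 in any library. PECAM1 and EMCN passed the filter on low counts through their knockout reads alone, and VWF and TEK through their wild-type reads alone. Markers of stromal cells summed lower in knockout, where IGFBP7 rose. The 10 fibroblast markers summed to 246 to 259 CPM in knockout, against 1055 to 1251 CPM in wild type. The 5 pericyte markers summed to 50.9 to 51.4 CPM in knockout, against 96.7 to 119 CPM in wild type, with 3 that fell and 1 that rose. The part of endothelial and stromal cells in the IGFBP7 result was not tested.

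IGFBP4 (ENSBTAG00000008611, chromosome 19, 40672669 to 40684245, plus strand), which encodes an inhibitor of IGF action, was far less abundant. It stood at 21.6, 19.0 and 18.4 CPM in the knockout libraries, against 11.9, 12.1 and 12.7 CPM in the wild-type libraries. The ranges did not overlap, and the log2 fold change was 0.69 ± 0.09 (edgeR adjusted p = 3.13e-06), or 1.61-fold. Its size was ordinary, since 46.5% of all genes called higher rose more. For IGFBP2 that share was 11.8% and for IGFBP7 19.3%.

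IGFBP5 (ENSBTAG00000054218, chromosome 2, 104659123 to 104680014, minus strand), the involution-associated binding protein, had the largest fall among the members. It had 11, 8 and 0 reads in the knockout libraries, against 70, 54 and 63 reads in the wild-type libraries. These are 0.631, 0.435 and 0 CPM in knockout, against 3.95, 2.89 and 3.44 CPM in wild type, so the gene was rare in both genotypes. It passed the filter on low counts through its wild-type reads alone. The 19 knockout reads have an exact Poisson interval of 11.4 to 29.7 and the 187 wild-type reads one of 161 to 216, for counting error only. The log2 fold change was -3.25 ± 0.43 with an edgeR adjusted p of 4.94e-06. It ran to -3.92 without knockout replicate 1 and to -2.67 without knockout replicate 3, the library with 0 reads, and to -4.07 by limma-voom, with an adjusted p up to 0.00110 over all alternatives.

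IGFBP3 (ENSBTAG00000003994, chromosome 4, 76116349 to 76124835, plus strand), the main IGF carrier of serum and a gene also expressed by many cultured cells, fell as well. It had 12, 26 and 17 reads in the knockout libraries, against 99, 79 and 90 reads in the wild-type libraries. In CPM these are 0.689, 1.41 and 0.948 in knockout and 5.59, 4.23 and 4.92 in wild type. Every knockout library lay below every wild-type library, and the log2 fold change was -2.26 ± 0.24 (edgeR adjusted p = 1.22e-07), or 4.78-fold lower. IGFBP1, which lies 6.45 kb from IGFBP3 on the same chromosome and encodes the insulin-regulated binding protein of liver, had no read in any library.

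IGFBP6 (ENSBTAG00000021467, chromosome 5, 26878956 to 26883908, minus strand), whose product binds IGF2 in preference to IGF1, fell by a small and even amount. It stood at 274, 265 and 269 CPM in the knockout libraries, against 371, 352 and 383 CPM in the wild-type libraries. The log2 fold change was -0.45 ± 0.04 with an edgeR adjusted p of 4.53e-08, or 1.37-fold lower. Of all genes called lower, 69.7% fell more than IGFBP6, while only 3.64% fell more than IGFBP5 and 7.56% more than IGFBP3.

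IGFBP3, IGFBP5 and IGFBP6, which fell, are known products of fibroblasts too, and IGFBP7, which rose, is known from stromal cells as well. The 10 fibroblast markers summed to 246 to 259 CPM in knockout, against 1055 to 1251 CPM in wild type, with 4 that fell, 1 that rose, 2 not called and 3 not tested. Most of that sum was DCN, a small proteoglycan gene, at 222, 234 and 231 CPM in knockout, against 1182, 1208 and 1012 CPM in wild type. COL1A2, a collagen gene, had reads in every knockout library and 0 in each wild-type library, so it passed the filter on low counts through its knockout reads alone. None of the 10 was at 0 in all libraries, and THY1, LUM and PDGFRB had at most 4 reads in any library. The part of such cells in the falls of IGFBP3, IGFBP5 and IGFBP6 was not tested.

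**Figure D2:**
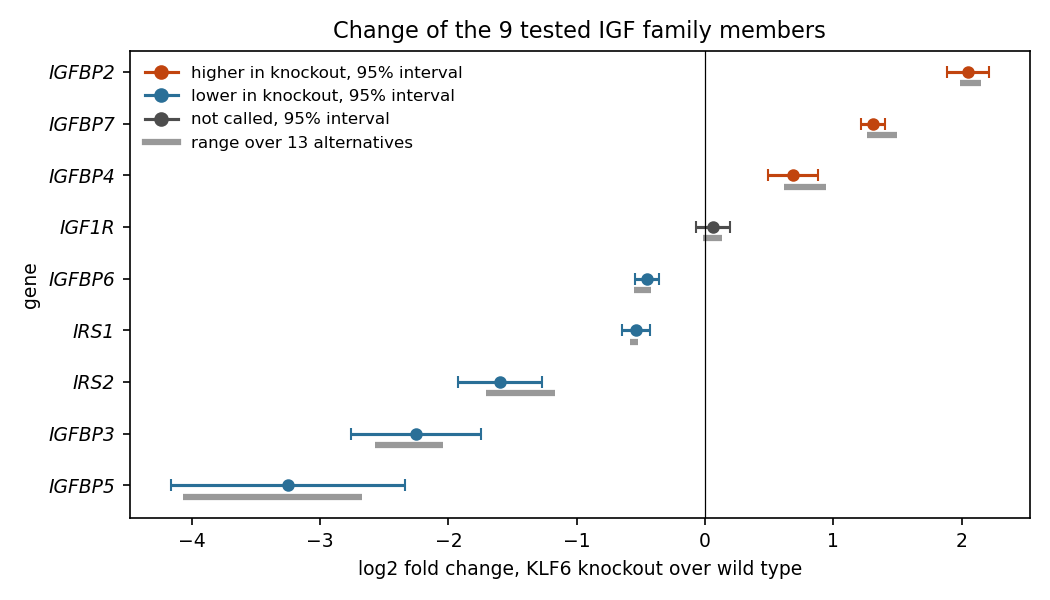
Log2 fold change (knockout over wild type) for the 9 tested members, with 95% intervals, and below each a grey bar for its range over 13 alternatives. IGFBP2 lies at 2.05 and IGFBP5 at -3.25, and the interval of IGF1R, from -0.07 to 0.19, contains 0.

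The receptor gene IGF1R (ENSBTAG00000021527, chromosome 21, 7780293 to 8080394, plus strand) stood at 87.8, 82.6 and 82.9 CPM in the knockout libraries, against 73.7, 80.5 and 88.3 CPM in the wild-type libraries. The knockout values fell within the wild-type range. The log2 fold change was 0.06 ± 0.06 with an edgeR adjusted p of 0.373, and its 95% interval of -0.07 to 0.19 leaves room for small changes only. Without wild-type replicate 3 the change was 0.13 and passed the test (edgeR adjusted p = 0.0242), so that library decides the call. With the median of all tested genes of chromosome 21 taken out, the value was -0.015.

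IRS1 (ENSBTAG00000021308, chromosome 2, 114988515 to 115174824, minus strand) was the more abundant docking protein gene. It stood at 59.0, 62.8 and 58.9 CPM in the knockout libraries, against 88.3, 85.5 and 88.8 CPM in the wild-type libraries. The ranges did not overlap, and the log2 fold change was -0.54 ± 0.05 (edgeR adjusted p = 3.69e-08), or 1.45-fold lower. RHBDD1, a tested gene on the other strand, overlaps the IRS1 locus and fell too, at 12.2, 13.4 and 11.9 CPM in knockout, against 17.9, 17.47 and 16.6 CPM in wild type (-0.47 ± 0.09, edgeR adjusted p = 1.91e-04). No source used here gives the strand setting of the counting, so reads of the overlap cannot be told apart.

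IRS2 (ENSBTAG00000012019, chromosome 12, 84650925 to 84655079, minus strand), the docking protein gene that FOXO factors are known to induce in fasting liver, fell more. It had 56, 42 and 52 reads in the knockout libraries, against 161, 152 and 150 reads in the wild-type libraries. In CPM these are 3.21, 2.28 and 2.90 in knockout and 9.09, 8.14 and 8.20 in wild type, and the groups were clearly apart. The log2 fold change was -1.60 ± 0.16 (edgeR adjusted p = 3.75e-08), or 3.03-fold lower. Tested genes of chromosome 12 had a median log2 fold change of -0.43 as a whole, and the IRS2 value with that median taken out was -1.17. Its 2 nearest tested loci, both unnamed, also fell (-1.61 ± 0.22 and -0.90 ± 0.32), with edgeR adjusted p of 3.70e-06 and 0.0157.

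Set side by side per length, the 3 abundant binding proteins stood far above the receptor and its docking proteins in both genotypes. In knockout libraries the mean TPM levels were 3800.1 ± 126 for IGFBP2, 738 ± 23.5 for IGFBP7, 281 ± 4.10 for IGFBP6, 32.6 ± 1.02 for IGF1R, 30.9 ± 1.18 for IRS1 and 15.5 ± 1.30 for IGFBP4 (SD, n = 3). In wild-type libraries they were 957 ± 120 for IGFBP2, 400.3 ± 17.4 for IGFBP6, 309.8 ± 9.24 for IGFBP7, 46.8 ± 0.932 for IRS1, 32.5 ± 3.26 for IGF1R and 10.004 ± 0.444 for IGFBP4. The order of the means thus differed at 2 places, IGFBP7 with IGFBP6 and IGF1R with IRS1, though IGF1R and IRS1 overlapped in knockout.

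IGFBP7 lay above IGFBP6 in every knockout library and below it in every wild-type library, with an IGFBP6 to IGFBP7 ratio of TPM of 0.384, 0.365 and 0.394 in knockout and 1.24, 1.24 and 1.39 in wild type. IGF1R and IRS1 overlapped in knockout, at a ratio of 1.12, 0.988 and 1.06, while IRS1 was the higher in each wild-type library, at 0.627, 0.708 and 0.747. The lower end of the order was IRS2, IGFBP3, IGFBP5 and IGF2 in both genotypes. There IRS2 and IGFBP3 overlapped in both genotypes, at 1.22 ± 0.204 and 0.747 ± 0.271 TPM in knockout and at 3.84 ± 0.195 and 3.75 ± 0.481 TPM in wild type. IGFBP5 and IGF2 overlapped in knockout only, where 1 library had no IGFBP5 read. The ratio of IRS1 to IRS2 was 21.6, 32.4 and 23.9 in knockout libraries, against 11.4, 12.4 and 12.8 in wild-type libraries.

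Summed over the 6 binding protein members, the level was 4990, 4780 and 4734 TPM in the knockout libraries, against 1636, 1581 and 1830 TPM in the wild-type libraries. The mean was 4835 ± 137 TPM in knockout and 1683 ± 131 TPM in wild type (SD, n = 3 each), a ratio of 2.87. IGFBP2 supplied 78.6% ± 0.542 of that sum in knockout and 56.7% ± 2.64 in wild type. The share of IGFBP6 was 5.81% ± 0.110 in knockout and 23.8% ± 0.811 in wild type, and that of IGFBP7 was 15.3% ± 0.535 in knockout and 18.5% ± 1.79 in wild type. Without IGFBP2 the sum was 1035 ± 23.5 TPM in knockout and 726 ± 14.99 TPM in wild type, a ratio of 1.43. IGFBP3, IGFBP4 and IGFBP5 together were a small part in each library, and the sum was not tested.

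**Figure D3:**
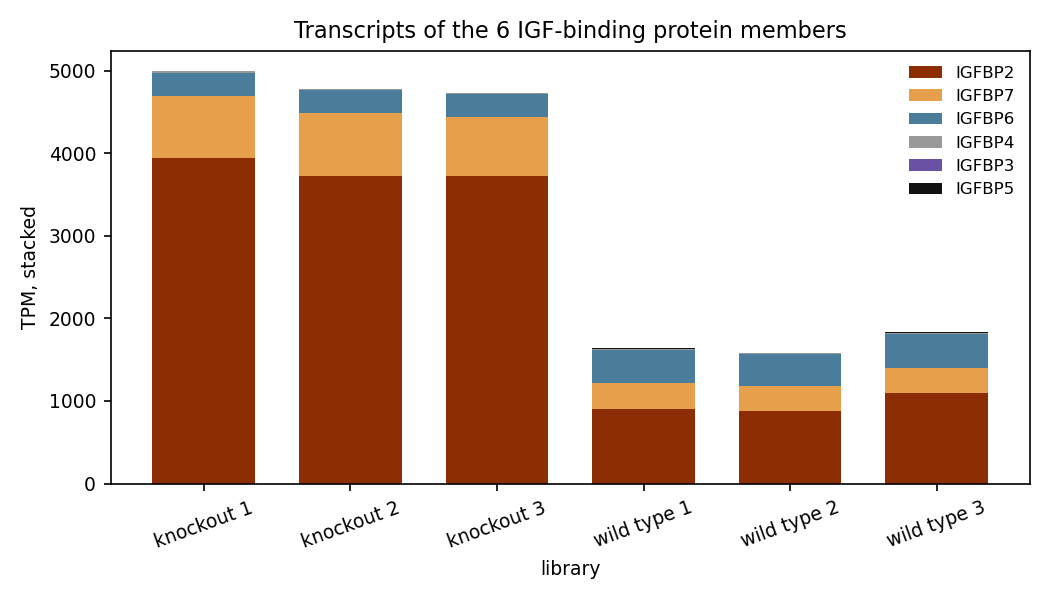
TPM of the 6 binding protein members stacked for each library, knockout libraries left of wild-type libraries. Knockout columns reach 4734 to 4990 TPM against 1581 to 1830 TPM in wild type, and IGFBP2 makes up most of each column.

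Several members lie beside relatives in the genome. IGFBP2 and IGFBP5 face each other tail to tail with 10.1 kb between their gene models, and they moved in opposite directions. RPL37A, the nearest tested gene on the other side of IGFBP2 and a ribosomal protein gene, stood at 766 ± 15.2 CPM in knockout, against 748 ± 20.6 CPM in wild type, and did not pass the test (log2 fold change 0.03 ± 0.04, edgeR adjusted p = 0.471). POLR2B, a subunit gene of RNA polymerase II that ends 103 bases from IGFBP7, fell slightly where IGFBP7 rose (-0.41 ± 0.05, edgeR adjusted p = 4.19e-07). TOP2A, the topoisomerase gene of dividing cells that lies 19.2 kb from IGFBP4, rose with it (0.80 ± 0.07, adjusted p = 1.18e-08).

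Tensin genes, which encode focal adhesion adaptors, are the next tested genes on 1 side of IGFBP3, IGFBP4 and IGFBP5. TNS3, 1120 kb from IGFBP3, stood at 1.72, 1.36 and 2.34 CPM in knockout, against 27.4, 30.0 and 28.2 CPM in wild type, a log2 fold change of -3.98 ± 0.14 in the direction of IGFBP3. TNS4, 12.7 kb from IGFBP4, stood at 232, 249 and 226 CPM in knockout, against 846, 838 and 793 CPM in wild type (-1.81 ± 0.05), opposite to IGFBP4. TNS1, 1222 kb from IGFBP5, stood at 58.3, 52.4 and 54.1 CPM in knockout, against 17.2, 16.5 and 21.5 CPM in wild type (1.58 ± 0.09), opposite to IGFBP5. TNS2, which lies 19.5 kb from IGFBP6 and was added after its values were seen, stood at 5.34 ± 0.287 CPM in knockout, against 19.5 ± 0.341 CPM in wild type (-1.86 ± 0.10). All 4 changes passed the test, with edgeR adjusted p between 5.10e-16 and 2.50e-11. RHBDD1, which overlaps IRS1 and fell with it, is not counted among the neighbours. The nearest tested genes that do not overlap IRS1 were NYAP2 and the collagen gene COL4A3, both rare, at 2.20 ± 0.459 and 3.13 ± 0.544 CPM in knockout, against 0.185 ± 0.144 and 0.0913 ± 0.0629 CPM in wild type, and both rose where IRS1 fell. Both passed the filter on low counts through their knockout reads alone. Beside IGF1R, the intermediate filament gene SYNM rose (1.29 ± 0.24, edgeR adjusted p = 9.17e-05), as did an unnamed locus with few reads. That locus too passed the filter through its knockout reads alone. CSAD, a taurine synthesis gene beside IGFBP6, fell with it (-1.60 ± 0.08), while SPRYD3 on the other side rose slightly (0.16 ± 0.05, adjusted p = 0.0113). TBRG4, on the other side of IGFBP3, rose (0.95 ± 0.05), and the tetraspanin gene CD81 beside the rarely read IGF2 stood at 333 ± 8.23 CPM in knockout, against 94.4 ± 2.87 CPM in wild type (1.82 ± 0.05). Of the 16 nearest tested, not overlapping genes on either side of the 8 called members, 14 were called, where 74.6% of all tested genes were. Their distance from the member ran from 103 bases for POLR2B to 6696 kb for an unnamed gene beside IGFBP7, with NYAP2 at 1137 kb. The count is thus not one of close neighbours only. It also holds IGFBP2 and IGFBP5, each other's neighbours, whose calls were fixed once called members were chosen. The share of calls is thus not an even match for the 74.6%. Of the 14, 5 moved with their member and 9 against it, counting the IGFBP2 and IGFBP5 pair from both sides. NYAP2 and COL4A3 are among the 9.

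**Figure D4:**
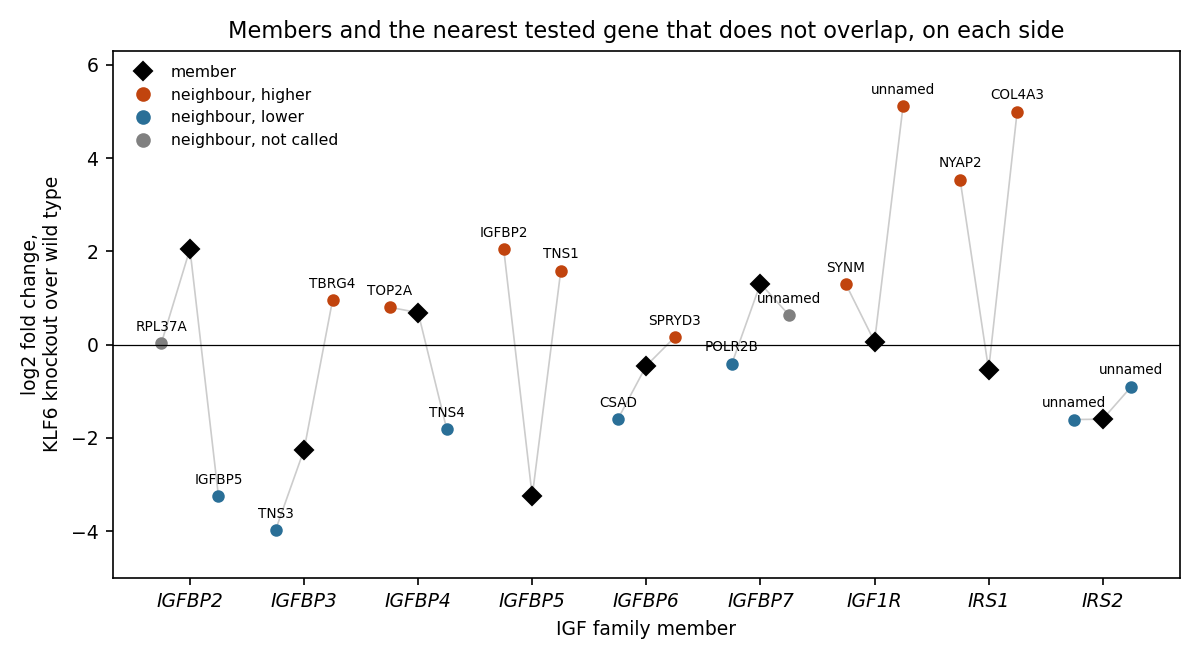
Log2 fold change (knockout over wild type) for each tested member (diamonds) and for the nearest tested gene that does not overlap it at its lower (left) and higher (right) coordinate. IGFBP2 and IGFBP5 are each other's neighbours and lie at 2.05 and -3.25, and TNS3 beside IGFBP3 lies at -3.98.

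The rest of the pathway was followed through 46 further genes, of which 32 had enough counts to be tested. Of these, 11 rose, 16 fell and 5 did not pass the test. The share of calls is again read against 74.6% over all tested genes. The median log2 fold change of the list was -0.13, against -0.01 for all tested genes.

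Among receptors and partners of the ligands, IGF2R, which clears IGF2 by carrying it to lysosomes, was the only tested gene. It stood at 82.4, 78.1 and 83.0 CPM in knockout, against 109.7, 116 and 127 CPM in wild type, a fall of 0.53 ± 0.06 on the log2 scale (edgeR adjusted p = 1.20e-07). The insulin receptor gene INSR had 0, 4 and 5 reads in knockout, against 0 in each wild-type library, at least 3.05-fold higher over the group when 3 counts are taken as the floor of the wild-type group. INSRR, named as the insulin receptor-related receptor gene, had 18, 7 and 9 reads in knockout, against 0, 1 and 1 in wild type, a ratio of 17.3 with a counting interval of 4.43 to 149. GHR, the growth hormone receptor gene, had 10, 8 and 7 reads in knockout, against 0 in each wild-type library, at least 8.48-fold higher. The filter on low counts kept these 3 genes out of the main test. DESeq2, which kept them, called INSRR (adjusted p = 0.00228) and GHR (adjusted p = 3.79e-04) higher and INSR not (adjusted p = 0.0753), and edgeR without the filter called all 3 (adjusted p = 1.44e-05 for INSRR, 1.69e-05 for GHR and 0.0149 for INSR). The authors' deposited table lists INSRR and GHR as higher, with log2 fold changes of 4.14 and 5.54.

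Of the 4 tested genes for proteases that cut IGF-binding proteins, HTRA1, ADAM12 and PAPPA rose in knockout libraries and CTSD did not pass the test. HTRA1, a secreted serine protease known to cleave IGFBP5, stood at 1151, 1194 and 1197 CPM in knockout, against 471, 468 and 434 CPM in wild type, a log2 fold change of 1.37 ± 0.04 (edgeR adjusted p = 7.20e-15). ADAM12, a metalloprotease that cleaves IGFBP3 and IGFBP5, stood at 9.30, 5.76 and 7.47 CPM in knockout, against 2.37, 1.93 and 3.44 CPM in wild type (1.54 ± 0.21, adjusted p = 5.97e-06). Both genes lie on chromosome 26, whose tested genes had a median log2 fold change of 0.45, and with it taken out they stood at 0.92 and 1.09.

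PAPPA, the protease that frees IGFs from IGFBP4, had 18, 13 and 11 reads in knockout, against 0 in each wild-type library, at least 14.2-fold higher (edgeR adjusted p = 1.07e-05). The gene passed the filter on low counts through its knockout reads alone. A filter of at least 1 CPM in 3 libraries left it untested. STC2, which encodes a stanniocalcin that inhibits PAPPA, fell (-0.52 ± 0.09, adjusted p = 4.88e-05, and -0.995 with the median of chromosome 20 taken out). STC1, its relative, had 2 reads over all knockout libraries and 0 over all wild-type libraries, and the protease gene PAPPA2 had 2 against 2. The lysosomal protease gene CTSD stood at 773 ± 18.6 CPM in knockout, against 801 ± 23.6 CPM in wild type (-0.05, 95% interval -0.14 to 0.04). Of the 8 genes of this group, 3 rose, 1 fell, 1 did not pass the test and 3 were not tested.

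Of the genes for proteins with an IGFBP-like domain and for partners of IGFBP3, 1 rose and 3 fell among 5 tested. RXRA, a nuclear receptor that binds IGFBP3, stood at 29.5, 27.9 and 25.6 CPM in knockout, against 54.6, 56.3 and 60.6 CPM in wild type (-1.05 ± 0.07, edgeR adjusted p = 2.28e-10). TMEM219, a proposed death receptor for IGFBP3, rose by 0.28 ± 0.06 (adjusted p = 7.99e-04). ESM1, which encodes endocan, was abundant and fell by 0.19 ± 0.04 on the log2 scale (adjusted p = 3.65e-04, and by 0.66 with the median of chromosome 20 taken out). LRP1, an endocytic receptor proposed to bind IGFBP3, had a log2 fold change of -0.62 ± 0.17 (adjusted p = 0.0225). It did not pass without knockout replicate 1 (adjusted p = 0.0623) or without wild-type replicate 2 (adjusted p = 0.0584).

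Of 8 tested adaptors of the receptors, 4 rose and 4 fell. DOK5, a docking protein gene related to the IRS genes, had 156, 164 and 151 reads in knockout, against 0 in each wild-type library, at least 159.7-fold higher (edgeR adjusted p = 3.69e-12). It too passed the filter on low counts through its knockout reads alone. GRB10, an adaptor known to restrain both receptors, stood at 29.4, 26.9 and 31.3 CPM in knockout, against 17.8, 18.1 and 17.9 CPM in wild type (0.71 ± 0.08, adjusted p = 3.07e-07). GRB2, which links receptors to the RAS pathway, rose by 0.65 ± 0.05 on the log2 scale (adjusted p = 1.06e-09). SHC1, the adaptor that competes with IRS1 for the receptor, stood at 114, 108 and 113 CPM in knockout, against 179, 172 and 184 CPM in wild type (-0.67 ± 0.05, adjusted p = 4.17e-10, and -0.28 with the median of chromosome 3 taken out). SH2B1 and SH2B2, adaptors of receptor kinases, fell too (-0.61 ± 0.10 and -0.64 ± 0.15). IRS4 and GRB14 had no read in any library.

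IGF2BP3, a fetal RNA-binding protein named after its binding to IGF2 mRNA, had 4, 13 and 9 reads in knockout, against 66, 90 and 103 reads in wild type. The gene passed the filter on low counts through its wild-type reads alone. It fell by 3.27 ± 0.30 on the log2 scale (edgeR adjusted p = 1.47e-08), while IGF2BP2 fell by 0.28 ± 0.06 (adjusted p = 3.10e-04, and by 0.17 with the median of chromosome 1 taken out). IGF2BP1 did not pass the filter, with 6 reads in knockout, against 12 in wild type.

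Of 7 genes for phosphatases, ubiquitin ligase parts and SOCS proteins that act on the receptor or on IRS1, 3 rose and 3 fell. CUL7 and FBXW8, parts of a ligase known to mark IRS1 for destruction, fell by 0.76 ± 0.07 and 0.92 ± 0.06 on the log2 scale (edgeR adjusted p = 1.90e-07 and 1.38e-10). SOCS3, a feedback inhibitor, fell by 0.86 ± 0.14 (adjusted p = 1.99e-05), whereas its relative SOCS1 rose by 1.25 ± 0.31 (adjusted p = 0.00133). PTPN11 rose by 0.40 ± 0.06 (adjusted p = 1.26e-05). PTPN1, the phosphatase of the insulin receptor, had a log2 fold change of 0.22 ± 0.08 (adjusted p = 0.0147, and 0.14 with the median of chromosome 13 taken out). It did not pass without knockout replicate 1 (0.0825), without wild-type replicate 1 (0.0533) or with scaling by library size only (0.0533), each an adjusted p.

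Among transcription factor genes known to act on IRS2, IGF1R or IGFBP1, 2 fell and 2 did not pass the test. FOXO1 stood at 19.8, 19.6 and 18.1 CPM in knockout, against 27.0, 27.7 and 30.5 CPM in wild type (-0.57 ± 0.08, edgeR adjusted p = 4.68e-06). It lies on chromosome 12, as IRS2 does, and with the median of that chromosome taken out its value was -0.14. FOXO3 had a log2 fold change of -0.32 ± 0.12 (adjusted p = 0.0258, and -0.48 with the median of chromosome 9 taken out). Its call was lost without knockout replicate 1, knockout replicate 3, wild-type replicate 2 or wild-type replicate 3 (adjusted p up to 0.110) and by DESeq2 (adjusted p = 0.0628). SP1, which drives the IGF1R promoter, had a log2 fold change of -0.06 (95% interval -0.19 to 0.06), and TFE3, an activator of IRS2 in mouse liver, one of -0.06 (-0.16 to 0.04).

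**Figure D5:**
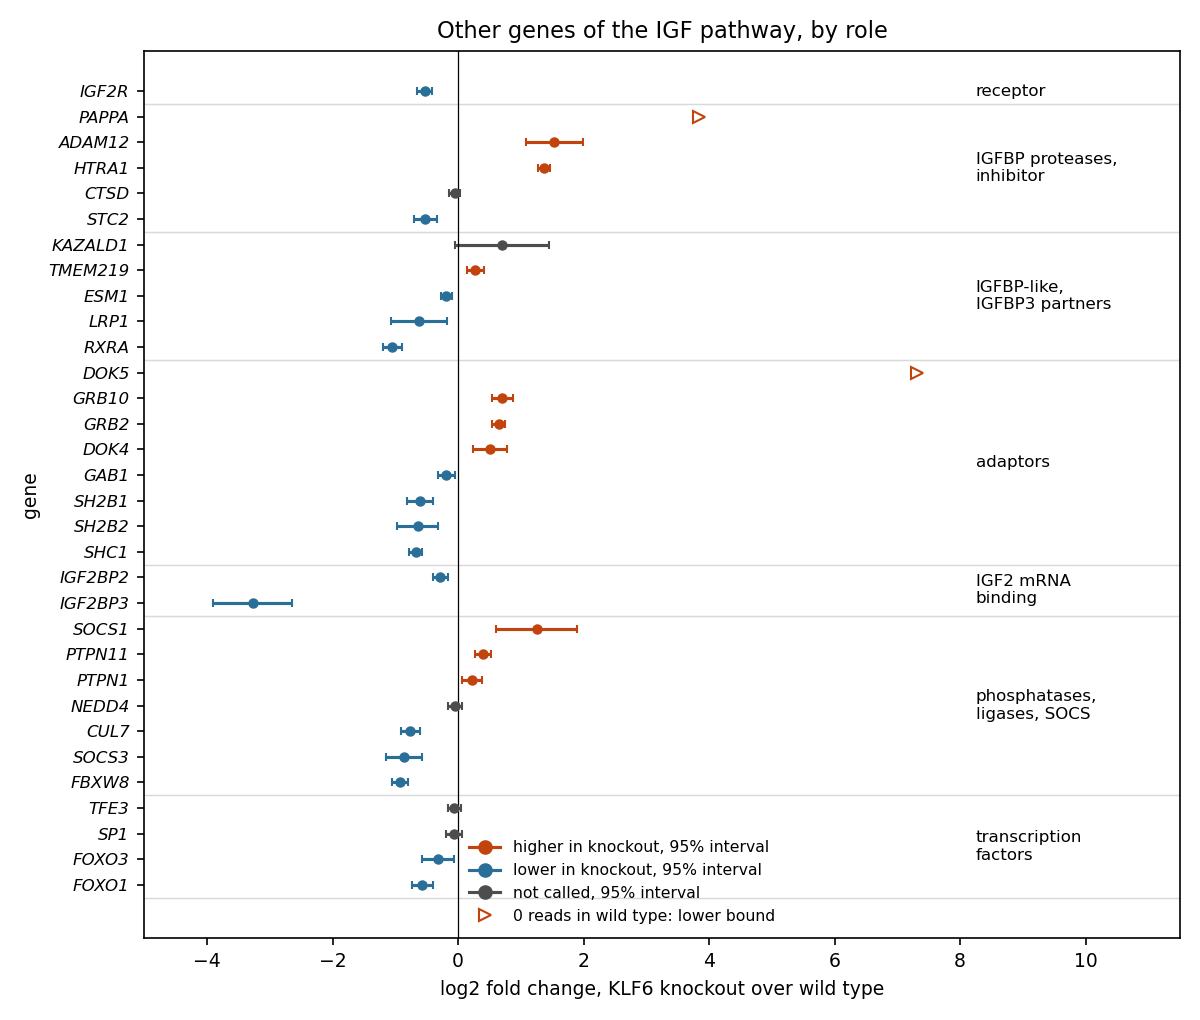
Log2 fold change (knockout over wild type) for the 32 tested genes of the pathway list, grouped by role, with 95% intervals. Triangles give the lower bound for PAPPA and DOK5, which had 0 reads in wild type, and IGF2BP3 lies lowest at -3.27.

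In the authors' deposited table, 8 of the 10 members are listed, all but IGF1R and IGF2. The log2 fold changes given there are 2.06 for IGFBP2, 1.32 for IGFBP7, 0.70 for IGFBP4, -0.44 for IGFBP6, -0.53 for IRS1, -1.59 for IRS2, -2.25 for IGFBP3 and -3.26 for IGFBP5 in the authors' deposited table.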

How the data were processed

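RNA was taken up in TRIzol, cleared of DNA with DNase I and built into libraries with an Ion Total RNA-Seq kit, per the labels' protocols. The authors deposited raw counts per gene and a table of their own comparison, which holds counts divided by 1 factor per library (a normalized signal), log2 fold changes, p-values and adjusted p-values. The 9532 genes of that table have an adjusted p of 0.0499 at most. The submitters' processing notes name HISAT2 (2.0.5) together with featureCounts (1.5.0-p3). The sources used here give no build, annotation version or strand setting.

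Libraries were grouped by title. The test was the quasi-likelihood test of edgeR 4.0.16 in R 4.3.3 (limma 3.58.1), with TMM scaling, filterByExpr (minimum count 10, minimum total 15), robust dispersions and Benjamini-Hochberg adjustment over 13390 tested genes. The SE is the size of the change divided by the root of the F statistic. TPM was computed from the counts and the deposited gene lengths, and differences between genotypes were tested on counts only. A gene at 0 in a group was bounded against 3 counts over the group. Counting intervals are 95% exact intervals and cover counting error only. The script was tested on simulated data. Same-numbered libraries did not deviate together (correlations of -0.135, 0.195 and -0.048), so no pairing was used.

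The members and lists were chosen with earlier results of these data known. Named were all members, KLF6, up to 3 genes per direction with the largest change in each pathway group, list genes at 0 in 1 genotype, and the nearest tested genes beside each member. List genes outside that rule (INSRR, CTSD, PAPPA2, IGF2BP1, SP1, TFE3 and those with no read) and TNS2 were named after their values were seen. Alternatives were DESeq2 1.42.0, limma-voom, scaling by library size, other filters, each library left out, a replicate block and chromosome medians taken out.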

Additional observations from a re-analysis of the deposited data

How the results depend on the processing

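The counts of called members stayed at 3 higher and 5 lower under every alternative run, except 4 higher without wild-type replicate 3, which added IGF1R. For the pathway list they ran from 10 to 14 higher and from 13 to 17 lower. The count higher was 13 by DESeq2 and 14 without a filter, fits that keep INSRR, GHR and INSR. Over all genes they ran from 4622 to 5425 higher and from 4603 to 5354 lower. With the replicate block, 4938 genes were higher and 4956 lower, and the same numbers of members and pathway genes were called as without it. The numbers only name the libraries, so nothing is read from the block. The 8 called members kept their direction and their call in every fit. With the chromosome median taken out, the log2 fold change went to 0.94 for IGFBP4, 1.49 for IGFBP7 and -0.55 for IGFBP6. Of the pathway genes, IGF2R then stood at -0.70, GRB2 at 0.91, PTPN11 at 0.30 and TMEM219 at 0.20. SOCS3 stood at -0.61, CUL7 at -0.86 and FBXW8 at -1.03. In the same setting IGF1R turned to -0.015. Its log2 ratio of mean TPM levels, 0.0033 with all libraries, ran from -0.068 to 0.077 with a library left out, and was below 0 without knockout replicate 1 (-0.023) or wild-type replicate 1. Leaving out IGFBP2 took the summed binding protein level to 1035 TPM in knockout and 726 TPM in wild type. For IGF2, without wild-type replicate 2 no ratio could be had, since the wild-type reads were then 0. Depth limits IGF2, INSR, INSRR, GHR, PAPPA, PAPPA2, STC1 and IGF2BP1, with at most 18 reads a library. IGFBP5 in knockout rests on 19 reads.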
